A study of Mus musculus with 6 samples.

Results

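The genes described here make cholesterol and fatty acids or control that synthesis. They were chosen by name: 36 symbols covering cholesterol synthesis, its SREBP regulators, sterol efflux and transport genes, and fatty acid synthesis. All 36 were found among the 22332 gene symbols of the count table, and all 36 passed the filter on low counts, as did 15084 genes in all. By role, 18 encode enzymes of cholesterol synthesis, 5 are SREBP regulators, 3 are sterol efflux genes or other LXR targets, 3 carry sterols within the cell, and 7 act in fatty acid and lipid synthesis.

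Cells build cholesterol from acetyl-CoA through the mevalonate pathway, which yields isoprenoid units, then squalene, lanosterol and cholesterol. The transcription factors SREBP1 and SREBP2 are held in the endoplasmic reticulum by SCAP and the INSIG proteins while sterols are plentiful. When sterols run short, SCAP escorts them to the Golgi, where they are cut and released to switch on genes of sterol and fatty acid synthesis. The nuclear receptor LXR senses oxysterols and switches on efflux genes such as Abca1.

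RNA was measured in CGR8, a line of mouse embryonic stem cells, kept in LIF and 10% fetal bovine serum (LIF is a cytokine that sustains pluripotency). The siRSL24D1 group (n = 3 libraries) received an siRNA pool against Rsl24d1, which encodes a factor that helps assemble large ribosomal subunits, and the siCtrl group (n = 3) received a pool of siRNAs with no target. Cells of both groups were collected 48 hours after transfection. All 6 libraries come from this line, kept on gelatin-coated plates. The study's text describes independent triplicates, and no untransfected cells were analysed here.

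Library totals ran from 30943635 to 35214000 estimated counts. Rsl24d1 was at 53.8, 55.5 and 52.1 CPM (CPM is the gene's count relative to the TMM-scaled library total) in the siRSL24D1 libraries, against 99.4, 102.7 and 97.9 CPM in the siCtrl libraries, a log2 fold change of -0.89 (SE 0.04). Of 8 pluripotent stem cell markers, 4 fell and 1 rose, and their summed level was 2572 to 2698 CPM in siRSL24D1 and 2981 to 3367 CPM in siCtrl. Of 6 neuroectoderm markers 4 rose, with summed levels of 324 to 391 CPM in siRSL24D1 and 235 to 245 CPM in siCtrl. The summed endoderm and liver markers were at 10.9 to 13.6 CPM in siRSL24D1 and 8.67 to 9.76 CPM in siCtrl, with 2 of 5 tested markers higher and 4 of 8 under 1 CPM in every library. Trophoblast markers summed to 85.7 to 87.8 CPM in siRSL24D1 and 85.9 to 89.8 CPM in siCtrl (3 of 5 tested rose, 1 fell), and fibroblast markers to 123 to 147 CPM in siRSL24D1 and 126 to 159 CPM in siCtrl (1 of 7 tested rose, 2 fell). Macrophage markers, of which 4 of 6 stayed under 1 CPM, summed to 15.0 to 16.9 CPM in siRSL24D1 and 20.2 to 25.5 CPM in siCtrl, and both tested markers fell. The marker counts rest on an edgeR adjusted p under 0.05, by which 20.0% of all 15084 tested genes fell and 21.2% rose. No marker was at 0 in every library, and the part of these shifts in the results below was not tested. In bulk RNA, fewer cells of a type and less RNA per cell cannot be told apart.

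Most of the sterol and fatty acid genes were lower in the siRSL24D1 cells. Of the 36 genes, 24 fell, 3 rose (Hsd17b7, Scap and Abca1) and 9 did not pass the test. A gene was called at an edgeR adjusted p under 0.05, a rule by which 20.0% of all 15084 tested genes fell and 21.2% rose. Their median log2 fold change was -0.34, with a range from -1.01 for Scd1 to 0.75 for Abca1, beside a median of 0.02 over all genes tested. Together the 36 genes took up 4545, 4318 and 4334 CPM in the siRSL24D1 libraries, against 5707, 5741 and 5829 CPM in the siCtrl libraries. The levels of the groups did not overlap for 28 of the 36, beside 53.0% of all genes tested. Those 28 were the 27 called genes and Srebf1.

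**Figure D1:**
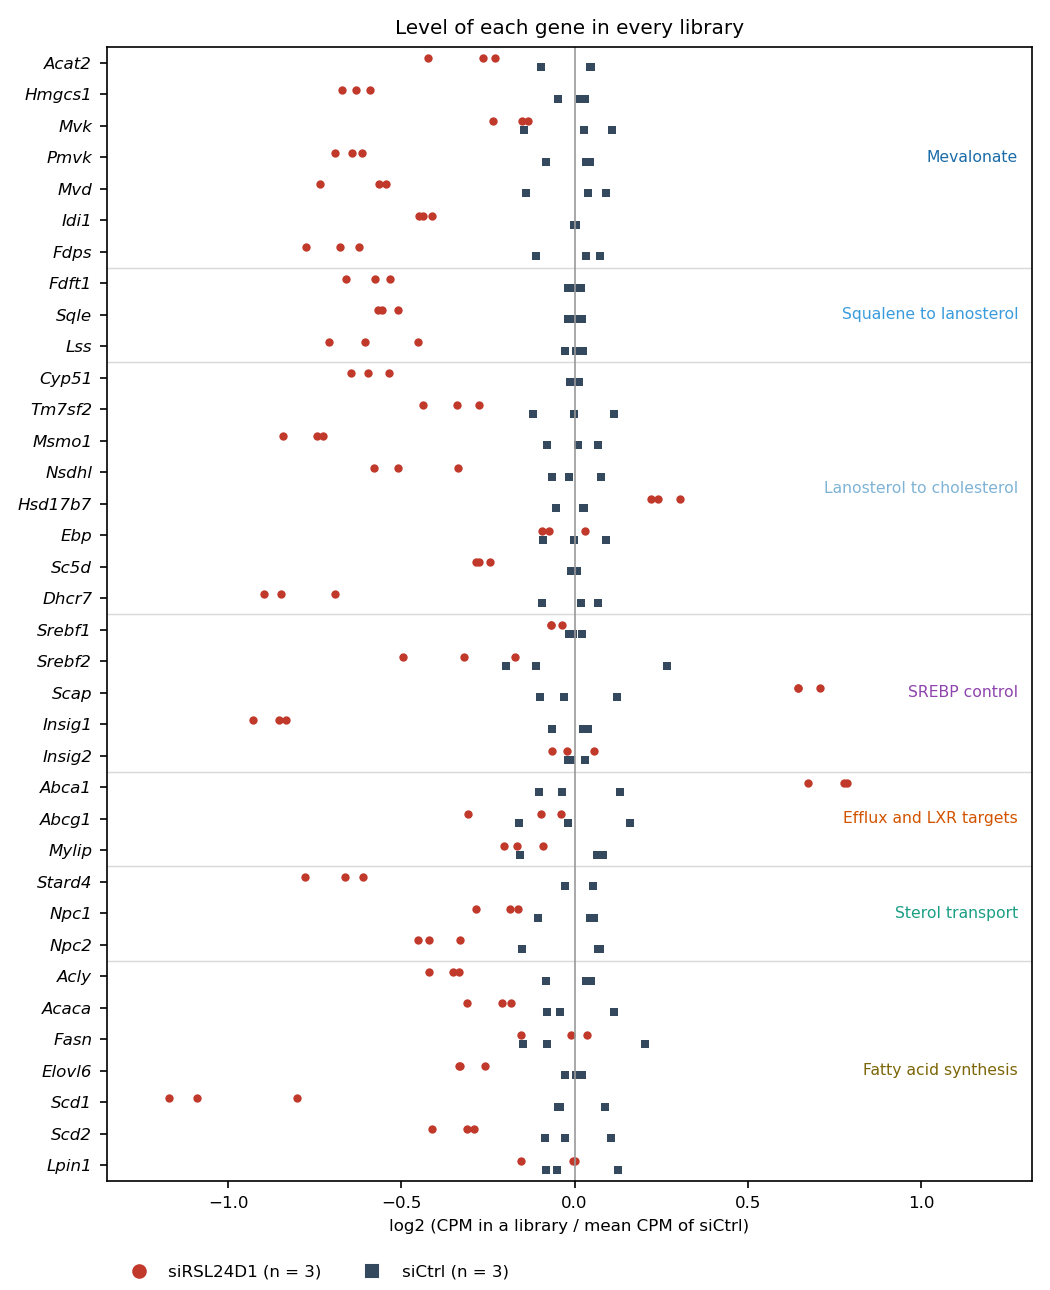
Level of each of the 36 genes in every library, as the log2 ratio to the mean CPM of the siCtrl libraries (x axis), with genes in pathway order down the page. Circles are the 3 siRSL24D1 libraries and squares the 3 siCtrl libraries. Circles lie left of the squares for 24 called genes and right of them for Hsd17b7, Scap and Abca1.

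Promoter windows of 6 of these genes are printed here: Hmgcs1, Msmo1 and Insig1 as genes that fell, and Hsd17b7, Scap and Abca1 as the genes that rose. Each window runs from 250 bases before the RefSeq gene start to 50 bases after it (GRCm38.p6), 5′ to 3′ on the gene's own strand. The RefSeq start used lay 214 bases from the GENCODE start for Msmo1, 49 for Insig1, 36 for Hsd17b7 and 28 for Hmgcs1. For Scap and Abca1 the starts coincided. Capitals mark 3 motifs on either strand: TCACNCCAC, a form of the sterol regulatory element, TCACNTGA, an E-box that SREBPs can bind, and CCAAT, the box bound by NF-Y. Those motifs share no capital run with each other in these windows. The Hmgcs1 window lies at chr13:119690101-119690400, plus strand, that of Msmo1 at chr8:64733529-64733828, minus strand, that of Insig1 at chr5:28071162-28071461, plus strand, that of Hsd17b7 at chr1:169969156-169969455, minus strand, that of Scap at chr9:110333038-110333337, plus strand (of its 2 windows, the one whose gene start is also the GENCODE start), and that of Abca1 at chr4:53159846-53160145, minus strand.
Hmgcs1: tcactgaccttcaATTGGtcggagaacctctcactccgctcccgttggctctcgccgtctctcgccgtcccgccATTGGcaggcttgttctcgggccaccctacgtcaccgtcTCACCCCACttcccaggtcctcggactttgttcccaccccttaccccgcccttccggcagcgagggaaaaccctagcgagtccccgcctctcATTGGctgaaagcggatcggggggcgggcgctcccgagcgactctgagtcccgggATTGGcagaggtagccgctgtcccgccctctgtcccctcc
Msmo1: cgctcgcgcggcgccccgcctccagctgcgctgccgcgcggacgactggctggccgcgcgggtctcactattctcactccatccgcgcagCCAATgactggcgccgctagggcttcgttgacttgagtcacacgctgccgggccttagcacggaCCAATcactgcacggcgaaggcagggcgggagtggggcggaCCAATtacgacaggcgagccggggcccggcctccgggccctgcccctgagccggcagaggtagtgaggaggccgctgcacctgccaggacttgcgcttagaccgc
Insig1: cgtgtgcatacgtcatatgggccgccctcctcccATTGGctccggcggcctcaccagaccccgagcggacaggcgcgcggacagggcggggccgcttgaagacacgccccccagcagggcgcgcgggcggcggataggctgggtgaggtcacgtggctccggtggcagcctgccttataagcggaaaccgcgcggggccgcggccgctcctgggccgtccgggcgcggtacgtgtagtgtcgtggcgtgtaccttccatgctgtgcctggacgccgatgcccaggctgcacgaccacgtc
Hsd17b7: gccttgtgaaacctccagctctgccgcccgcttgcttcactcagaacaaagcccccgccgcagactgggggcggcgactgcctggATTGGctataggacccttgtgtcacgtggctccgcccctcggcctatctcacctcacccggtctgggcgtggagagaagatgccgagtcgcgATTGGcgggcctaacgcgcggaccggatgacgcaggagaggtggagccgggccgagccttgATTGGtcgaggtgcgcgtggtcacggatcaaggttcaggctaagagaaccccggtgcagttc
Scap: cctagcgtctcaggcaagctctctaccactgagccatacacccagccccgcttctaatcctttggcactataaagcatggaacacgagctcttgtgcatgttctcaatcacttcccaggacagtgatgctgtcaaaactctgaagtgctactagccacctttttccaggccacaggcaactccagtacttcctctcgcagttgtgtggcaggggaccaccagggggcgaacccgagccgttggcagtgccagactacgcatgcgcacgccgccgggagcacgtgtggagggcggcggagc
Abca1: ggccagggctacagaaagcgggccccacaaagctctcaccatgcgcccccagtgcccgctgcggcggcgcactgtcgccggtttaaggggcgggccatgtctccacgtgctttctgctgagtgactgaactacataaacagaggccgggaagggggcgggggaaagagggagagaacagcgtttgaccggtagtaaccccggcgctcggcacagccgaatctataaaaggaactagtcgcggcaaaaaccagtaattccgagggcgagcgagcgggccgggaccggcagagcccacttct

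A window was held for 28 of the 36 genes. CCAAT was present in 22 of the 28 (78.6%), beside 41.1% of all 27025 genes with a window and 42.9% of the 11664 tested genes with one. By direction, it was found for 14 of 17 genes that fell, for 1 of 3 that rose (Hsd17b7) and for 7 of 8 that were not called. TCACNCCAC was found in Hmgcs1 alone, at position -137 from the gene start, and in 1.44% of all genes with a window. TCACNTGA was found in Insig2 alone, and in 4.78% of all genes. The GC box GGGCGG, a site of Sp1 (not capitalised above), was found for 23 of the 28 genes. It was found for 38.2% of all genes with a window and 66.4% of tested genes with one. Genes with several annotated starts had several windows and counted as matched if any held the letters. A match says that the letters are present and does not show binding.

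Of the 18 sterol enzymes, 15 fell, 1 rose and 2 were not called, while 20.0% of all tested genes fell and 21.2% rose. In the mevalonate stage 6 of 7 were lower, 0 were higher, and the median log2 fold change was -0.61. Fdps, which makes farnesyl diphosphate, was at 179, 173 and 161 CPM in the siRSL24D1 libraries, against 282, 290.3 and 256 CPM in the siCtrl libraries. The groups were well apart, at a log2 fold change of -0.69 (SE 0.06, edgeR adjusted p = 0.00011). Pmvk, the phosphomevalonate kinase, was at 36.1, 36.8 and 34.9 CPM in siRSL24D1 and 57.6, 58.1 and 53.2 CPM in siCtrl (log2 fold change -0.65, SE 0.05). Hmgcs1, the cytosolic HMG-CoA synthase at the entry of the pathway, had the highest level of the stage per kilobase of exon, with means of 78.7 CPM in siRSL24D1 and 121.8 CPM in siCtrl. Unscaled for length, it was at 371.5, 362 and 351 CPM in siRSL24D1 and 572, 566 and 541 CPM in siCtrl (log2 fold change -0.63, SE 0.04, edgeR adjusted p = 4.1e-05).

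Also lower were Mvd, the mevalonate diphosphate decarboxylase, at -0.61 on the log2 scale, Idi1, the isopentenyl diphosphate isomerase, at -0.43, and Acat2, the cytosolic thiolase that joins the starting acetyl groups, at -0.30. Mvk, the mevalonate kinase, averaged 23.6 ± 0.89 CPM in siRSL24D1 and 26.6 ± 2.37 CPM in siCtrl (SD, n = 3 each) and was not called (edgeR adjusted p = 0.09). Its lowest siCtrl value, 24.0 CPM in siCtrl 3, lay within the siRSL24D1 values, and without siCtrl 3 it passed at -0.26 (edgeR adjusted p = 0.0102). Fdps and Acat2 had counts that were not whole in several libraries (tolerance 0.01), as happens where reads are split between similar transcripts, and 26.7% of the Fdps exon length also belongs to Gm43738 on the same strand, so both values are uncertain.

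All 3 enzymes between farnesyl diphosphate and lanosterol fell, at log2 fold changes of -0.59 to -0.54, beside 20.0% of all tested genes. Fdft1, the squalene synthase, was at 110.6, 107 and 101 CPM in siRSL24D1, against 160.2, 162 and 158 CPM in siCtrl (log2 fold change -0.59, SE 0.04). Sqle, the squalene epoxidase, was at 72.1, 72.7 and 75.0 CPM in siRSL24D1 and 105, 107 and 108 CPM in siCtrl (-0.54, SE 0.04). Lss, which closes the rings to give lanosterol, was at 64.4, 57.9 and 53.9 CPM in siRSL24D1 and 88.2, 86.3 and 89.5 CPM in siCtrl (-0.58, SE 0.06). No siRSL24D1 library reached the lowest siCtrl library for any of the 3, and their largest edgeR adjusted p was 0.00031. Exons of Fdft1 overlap those of Ctsb on the opposite strand over 18.3% of their length. Opposite-strand genes also overlap 12.1% of the Hmgcs1 exon length (Gm48342) and 9.22% of that of Idi1 (Gm48574). No source used here states the strand setting of the counting.

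From lanosterol to cholesterol, 6 of 8 enzymes fell, 1 rose and 1 was not called, with a median of -0.41. Over all tested genes, 20.0% fell and 21.2% rose. Dhcr7, the reductase of the final step of one route to cholesterol, was at 25.1, 22.5 and 21.8 CPM in siRSL24D1 and 38.0, 41.1 and 42.5 CPM in siCtrl. Its log2 fold change of -0.81 (SE 0.07, edgeR adjusted p = 0.00011) was the largest fall among the sterol enzymes listed. Msmo1, the sterol methyl oxidase, was at 104, 103 and 96.3 CPM in siRSL24D1 and 173, 181 and 163 CPM in siCtrl (-0.77, SE 0.05). Cyp51, the lanosterol demethylase, was at 92.5, 88.7 and 85.7 CPM in siRSL24D1 and 134, 135 and 133 CPM in siCtrl (-0.59, SE 0.04). Nsdhl, a sterol dehydrogenase, was at -0.47, Tm7sf2, a sterol reductase, at -0.35, and Sc5d, a sterol desaturase, at -0.27, and all 3 passed. Tm7sf2 had counts that were not whole in 6 libraries and shares 12.1% of its exon length with Vps51 on the same strand. Ebp, the sterol isomerase, was at 24.2 ± 1.13 CPM in siRSL24D1 and 25.0 ± 1.57 CPM in siCtrl, with overlapping values (log2 fold change -0.04, SE 0.06, edgeR adjusted p = 0.613).

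Hsd17b7 went the other way from the enzymes around it. It encodes a keto-reductase that acts with Msmo1 and Nsdhl in removing methyl groups from the sterol ring. Its levels were 28.2, 29.9 and 28.6 CPM in siRSL24D1, against 24.6, 24.6 and 23.3 CPM in siCtrl. Every siRSL24D1 library exceeded every siCtrl library, at a log2 fold change of 0.26 (SE 0.05, edgeR adjusted p = 0.00509). The log2 ratio of Hsd17b7 to Nsdhl averaged 0.27 ± 0.15 in siRSL24D1 and -0.45 ± 0.05 in siCtrl (SD, n = 3 each), a difference of 0.72. A two-sided exact permutation test gave p = 0.1 (0.133 adjusted over the 4 ratios compared), the smallest p that 3 libraries against 3 can give.

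**Figure D2:**
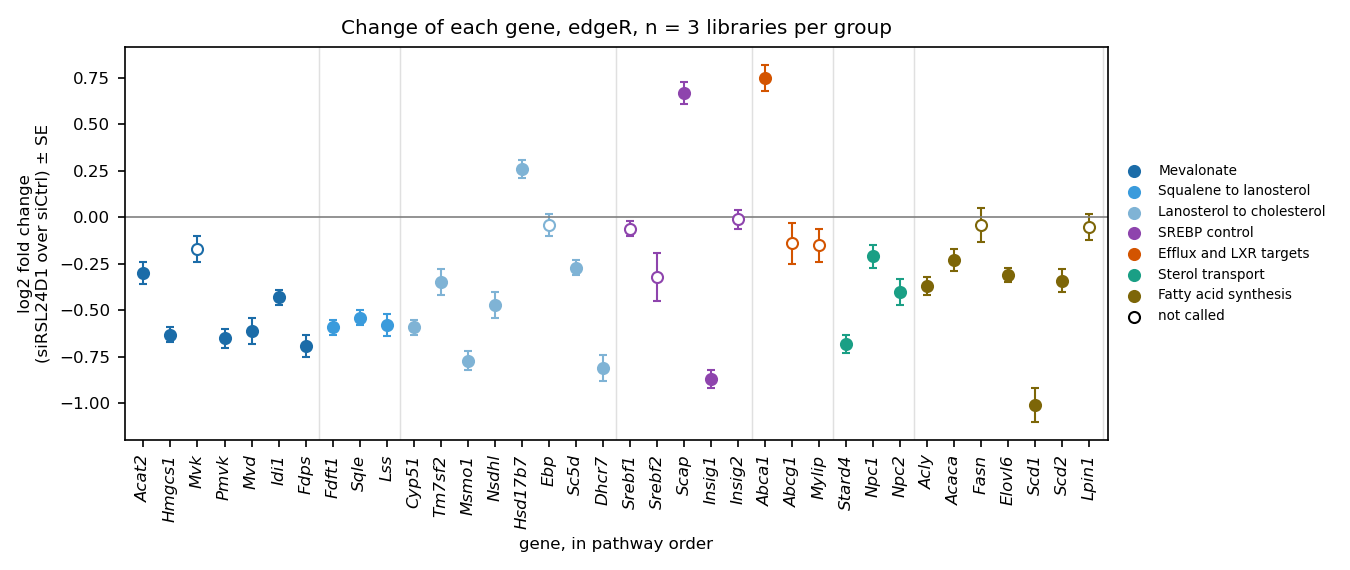
Log2 fold change of each gene, siRSL24D1 over siCtrl, with a standard error derived from the edgeR F statistic (y axis), in pathway order (x axis) for 3 libraries per group. Filled points passed the test and open points did not, and colours mark the 7 roles. Sterol enzymes lie between -0.81 and -0.17 except Ebp at -0.04 and Hsd17b7 at 0.26.

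Of the 5 SREBP regulators, 1 fell, 1 rose and 3 were not called, with a median of -0.06. These counts lie near the share over all tested genes, of which 20.0% fell and 21.2% rose. Insig1, the sterol-sensing retention protein and itself an SREBP target, was at 89.1, 90.4 and 84.6 CPM in siRSL24D1 and 165, 163.5 and 154 CPM in siCtrl. At a log2 fold change of -0.87 (SE 0.05, edgeR adjusted p = 2.1e-05) it was 0.547 of its siCtrl level. Insig2, its paralog with the same retention role, was at 21.8, 21.2 and 23.0 CPM in siRSL24D1 and 21.9, 22.0 and 22.6 CPM in siCtrl. The Insig2 values overlapped (log2 fold change -0.01, SE 0.05, edgeR adjusted p = 0.90), and its sign turned to 0.01 when library totals were used for scaling. The log2 ratio of Insig1 to Insig2 averaged 1.98 ± 0.11 in siRSL24D1 and 2.83 ± 0.08 in siCtrl, a difference of -0.86 (two-sided exact permutation p = 0.1, adjusted 0.133, the smallest raw p possible).

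Scap, the escort of the SREBPs, was higher, at 42.9, 44.8 and 42.9 CPM in siRSL24D1 and 25.6, 26.9 and 29.9 CPM in siCtrl. The groups lay far apart, at a log2 fold change of 0.67 (SE 0.06, edgeR adjusted p = 0.00016). Exons of Scap overlap those of 5830462I19Rik on the opposite strand over 13.2% of their length. The factors themselves were not called. Srebf1, which encodes SREBP1, was at 78.2, 76.4 and 76.3 CPM in siRSL24D1 and 79.2, 79.8 and 81.3 CPM in siCtrl, which do not overlap but differ by -0.06 on the log2 scale (SE 0.04, edgeR adjusted p = 0.257). Transcripts of Srebf1 isoforms are not separated in these gene-level counts. Srebf2, which encodes SREBP2, was at 92.1, 73.6 and 83.0 CPM in siRSL24D1 and 90.4, 96.0 and 124.8 CPM in siCtrl.

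The Srebf2 values overlapped, and siCtrl 3 was far above the other siCtrl libraries. Its log2 fold change was -0.32 (SE 0.13, edgeR adjusted p = 0.0698), and -0.18 without siCtrl 3 (edgeR adjusted p = 0.123). It passed under 6 other settings, among them a correction for gene length (-0.36, edgeR adjusted p = 0.012) and DESeq2 (-0.33, adjusted p = 0.0104). The log2 ratio of Srebf1 to Srebf2 averaged -0.10 ± 0.15 in siRSL24D1 and -0.36 ± 0.23 in siCtrl, a difference of 0.26 (two-sided exact permutation p = 0.2, adjusted 0.2), and 0.13 without siCtrl 3.

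**Figure D3:**
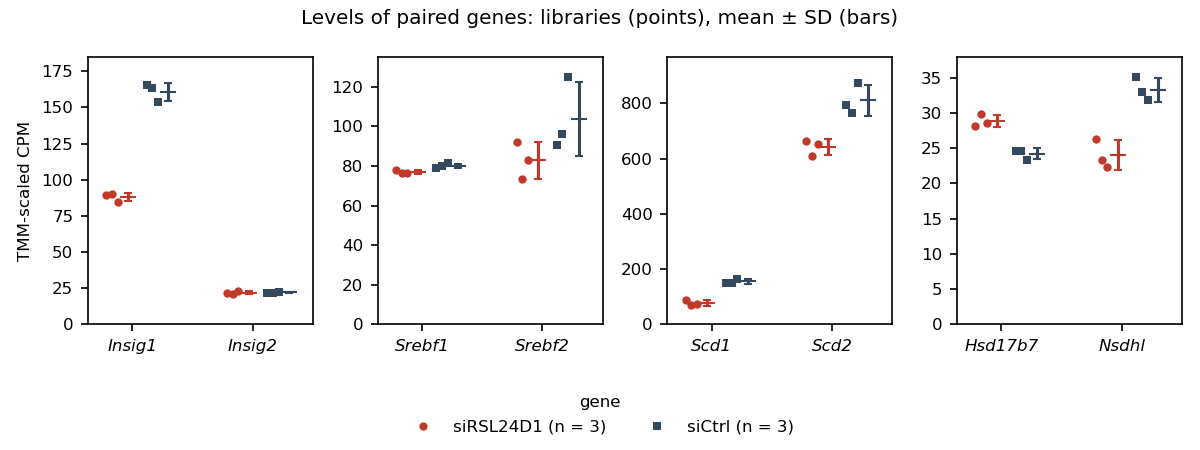
TMM-scaled CPM (y axis, from 0) of Insig1 and Insig2, Srebf1 and Srebf2, Scd1 and Scd2, and Hsd17b7 and Nsdhl, with siRSL24D1 left of siCtrl for each gene. Points are the 3 libraries of a group and bars the mean ± SD. Insig1 and both Scd genes are lower in siRSL24D1, Insig2 averages 22.0 CPM in siRSL24D1 and 22.2 CPM in siCtrl, and Hsd17b7 is higher while Nsdhl is lower.

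Among the efflux and LXR target genes, 1 of 3 rose and 0 fell, beside 21.2% and 20.0% of all tested genes. Abca1, the transporter that loads cholesterol onto lipoproteins, was at 33.4, 30.9 and 33.2 CPM in siRSL24D1 and 18.9, 18.0 and 21.2 CPM in siCtrl. All siRSL24D1 libraries lay above all siCtrl libraries, at a log2 fold change of 0.75 (SE 0.07, edgeR adjusted p = 0.00016), or 1.68-fold. Abcg1, another sterol transporter and LXR target, was at 9.62, 10.0 and 8.30 CPM in siRSL24D1 and 11.5, 10.1 and 9.20 CPM in siCtrl (-0.14, SE 0.11, edgeR adjusted p = 0.322). Mylip, a ubiquitin ligase for lipoprotein receptors that LXR induces, was at 8.15, 8.58 and 7.94 CPM in siRSL24D1 and 8.20, 9.68 and 9.55 CPM in siCtrl (-0.15, SE 0.09, edgeR adjusted p = 0.206). Values of both overlapped between the groups.

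Intracellular sterol carriers fell, 3 of 3, beside 20.0% of all tested genes. Stard4, a soluble sterol carrier and SREBP target, was at 63.4, 56.5 and 61.2 CPM in siRSL24D1 and 94.9, 95.0 and 100.5 CPM in siCtrl (-0.68, SE 0.05, edgeR adjusted p = 7.2e-05). Npc2, which hands cholesterol from the lysosome lumen to Npc1, was at 153, 163 and 149 CPM in siRSL24D1 and 214, 215 and 184 CPM in siCtrl (-0.40, SE 0.07). Npc1, the lysosomal membrane exporter, was at 43.4, 40.0 and 42.8 CPM in siRSL24D1 and 45.2, 50.2 and 50.6 CPM in siCtrl. Its groups were separated by a narrow gap, at -0.21 (SE 0.06, edgeR adjusted p = 0.0217). The call was lost without siCtrl 2 (-0.19, edgeR adjusted p = 0.0779), siRSL24D1 2 (-0.18, 0.0614) or siRSL24D1 3 (-0.22, 0.0533).

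Among the fatty acid and lipid genes, 5 of 7 fell and 0 rose, beside 20.0% and 21.2% of all tested genes. Their median was -0.31, and that of the 18 sterol enzymes was -0.56. Scd1, a stearoyl-CoA desaturase that makes monounsaturated fatty acids, was at 89.5, 69.2 and 73.3 CPM in siRSL24D1 and 151, 151 and 165 CPM in siCtrl. No other gene of the 36 fell further, at a log2 fold change of -1.01 (SE 0.09, edgeR adjusted p = 0.00013), or 0.496 of the siCtrl level. Scd2, its neighbour on chromosome 19 (44293674 to 44306864 for Scd2 and 44394455 to 44407879 for Scd1, GRCm38), was at 662, 609 and 654 CPM in siRSL24D1 and 795, 764 and 872 CPM in siCtrl. Per kilobase of exon, Scd2 averaged 117 CPM in siRSL24D1 and 148 CPM in siCtrl, while Scd1 averaged 15.8 CPM in siRSL24D1 and 31.9 CPM in siCtrl. The change of Scd2 was -0.34 (SE 0.06, edgeR adjusted p = 0.0027). The log2 ratio of Scd1 to Scd2 averaged -3.05 ± 0.15 in siRSL24D1 and -2.37 ± 0.04 in siCtrl, a difference of -0.68 (two-sided exact permutation p = 0.1, adjusted 0.133, the smallest raw p possible). Both genes had counts that were not whole in 5 or 6 libraries, so single values are uncertain. Whether reads were divided between them was not tested. Mir5114 on the same strand covers 1.12% of the Scd2 exon length.

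Acly, which makes cytosolic acetyl-CoA from citrate and so feeds both pathways, was at 609.6, 617 and 581 CPM in siRSL24D1 and 796, 803 and 734 CPM in siCtrl (-0.37, SE 0.05, edgeR adjusted p = 0.00073). Elovl6, which lengthens palmitate, was at -0.31 (SE 0.04), with counts that were not whole in 5 libraries. Acaca, the acetyl-CoA carboxylase that commits carbon to fatty acids, was at -0.23 (SE 0.06, edgeR adjusted p = 0.015), and at -0.37 after the correction for gene length. Fasn, the fatty acid synthase, was at 640.5, 562 and 621 CPM in siRSL24D1 and 564, 592 and 719 CPM in siCtrl. The ranges of the groups overlapped, with siCtrl 3 the highest library (log2 fold change -0.04, SE 0.09, edgeR adjusted p = 0.755), and the sign turned to 0.06 without siCtrl 3. Lpin1, a phosphatidate phosphatase of glycerolipid synthesis, was at 46.2 ± 2.75 CPM in siRSL24D1 and 47.8 ± 3.82 CPM in siCtrl (-0.05, SE 0.07, edgeR adjusted p = 0.583).

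Deviations of siCtrl 3 from its group mean rose with gene length across genes (Spearman's rho 0.37, a description over genes of 1 library), while those of siCtrl 1 and siCtrl 2 were at -0.29 and -0.25. Within siRSL24D1, replicate 2 was at -0.37 and replicates 1 and 3 at 0.20 and 0.26. Among the 36 genes, siCtrl 3 was the highest siCtrl library for 16 and the lowest for 19. Without siCtrl 3, 25 of the 36 genes fell and 3 rose, beside 3285 and 3356 of all 15250 genes tested in that setting. With the gene length correction, 25 fell and 3 rose, beside 3390 and 3003 of all 15084 genes tested. In the main test, 3021 of all 15084 fell and 3191 rose.

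Other genes of these pathways were read from the same test, by which 20.0% of all tested genes fell and 21.2% rose. Among further genes of fatty acid synthesis, activation and desaturation, 13 of 24 fell and 3 rose (Elovl2, Elovl4 and Hacd1), with a median of -0.26. The Elovl2 call was lost with DESeq2 (adjusted p = 0.0593) and in edgeR without siCtrl 2, siRSL24D1 2 or siRSL24D1 3. Acacb, a gene of this list that fell, was not called in edgeR without siRSL24D1 2 or siRSL24D1 3. Acss2, which makes acetyl-CoA from acetate, was at 7.80, 7.41 and 7.46 CPM in siRSL24D1 and 13.8, 14.2 and 12.1 CPM in siCtrl (-0.82, SE 0.08, edgeR adjusted p = 0.00022). Fads2, a desaturase of polyunsaturated fatty acids, was at 33.0, 33.1 and 31.6 CPM in siRSL24D1 and 48.6, 46.1 and 47.1 CPM in siCtrl (-0.54, SE 0.05). Both had groups that lay well apart. In fatty acid oxidation, 5 of 15 tested genes fell and 2 rose, with a median of -0.07, and 3 fell without siCtrl 2. Cpt1a, which admits fatty acids to mitochondria, was at -0.39 (SE 0.06), and Hadhb, a subunit of the mitochondrial trifunctional protein, at 0.37 (SE 0.04).

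Of the sterol uptake and trafficking genes, 5 of 12 were lower and 1, Gramd1c, was higher (median -0.10). With DESeq2, 4 of the 12 fell and 0 rose, since Lipa (adjusted p = 0.0539) and Gramd1c (adjusted p = 0.0744) no longer passed. In edgeR the Gramd1c call was also lost without siRSL24D1 3, siCtrl 2 or siCtrl 3. The Lipa call was lost there without siRSL24D1 1, siRSL24D1 3, siCtrl 1 or siCtrl 2. Lrp8, a lipoprotein receptor, was at 16.2, 13.9 and 16.0 CPM in siRSL24D1 and 23.5, 23.7 and 26.3 CPM in siCtrl (-0.67, SE 0.08, edgeR adjusted p = 0.00038). Its counts were not whole in 4 libraries. Scarb1, the receptor for high-density lipoprotein, was at -0.51 (SE 0.09). In the oxysterol and LXR list 3 of 12 fell and 0 rose (median -0.04), beside 20.0% and 21.2% of all tested genes. Only 1 of those 3, Cyp7b1, passed with DESeq2, and in edgeR without siRSL24D1 1, siRSL24D1 3 or siCtrl 1. Without siCtrl 3, 3 fell and 1, Osbp, rose. The LXR genes Nr1h2 and Nr1h3 were at 0.02 and 0.18 and were not called. Cyp7b1, an oxysterol hydroxylase, was at -0.66 (SE 0.14). Smpdl3a, a phosphodiesterase, was at -0.52 (SE 0.14, edgeR adjusted p = 0.0189, DESeq2 adjusted p = 0.0791), and Cyp27a1, a sterol hydroxylase, at -0.42 (SE 0.14, edgeR adjusted p = 0.0382, DESeq2 adjusted p = 0.0963). Levels of both were low. Smpdl3a averaged 1.54 CPM in siRSL24D1 and 2.22 CPM in siCtrl, and Cyp27a1 2.40 CPM in siRSL24D1 and 3.21 CPM in siCtrl.

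Genes that process or degrade SREBPs and their partners were mostly not called: 1 of 10 fell, Rnf145, an endoplasmic reticulum ubiquitin ligase, at -0.22 (SE 0.04), and the proteases Mbtps1 and Mbtps2 were at -0.01 and -0.02. Of 4 promoter cofactor genes, Nfyc, a subunit of the CCAAT-binding factor NF-Y, rose. It was at 55.2, 62.2 and 59.5 CPM in siRSL24D1 and 41.5, 40.1 and 41.8 CPM in siCtrl (0.52, SE 0.05, edgeR adjusted p = 0.00024). Nfya and Nfyb, the other NF-Y subunits, were at -0.14 and -0.06, and Sp1 at -0.14, and none of the 3 was called. In the isoprenoid branches that leave the mevalonate pathway, 1 of 10 fell and 3 rose, with a median of 0.10. Over all tested genes, 20.0% fell and 21.2% rose. Only 1 of the 10 rose, Pggt1b, with DESeq2, and in edgeR without siRSL24D1 2, siRSL24D1 3, siCtrl 1 or siCtrl 2. Coq2, a prenyltransferase of ubiquinone synthesis, was at -0.34 (SE 0.05), and Pggt1b, a subunit of a protein prenyltransferase, at 0.28 (SE 0.06), while Ggps1, the synthase of geranylgeranyl diphosphate, was at 44.9 ± 0.65 CPM in siRSL24D1 and 44.9 ± 0.89 CPM in siCtrl.

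**Figure D4:**
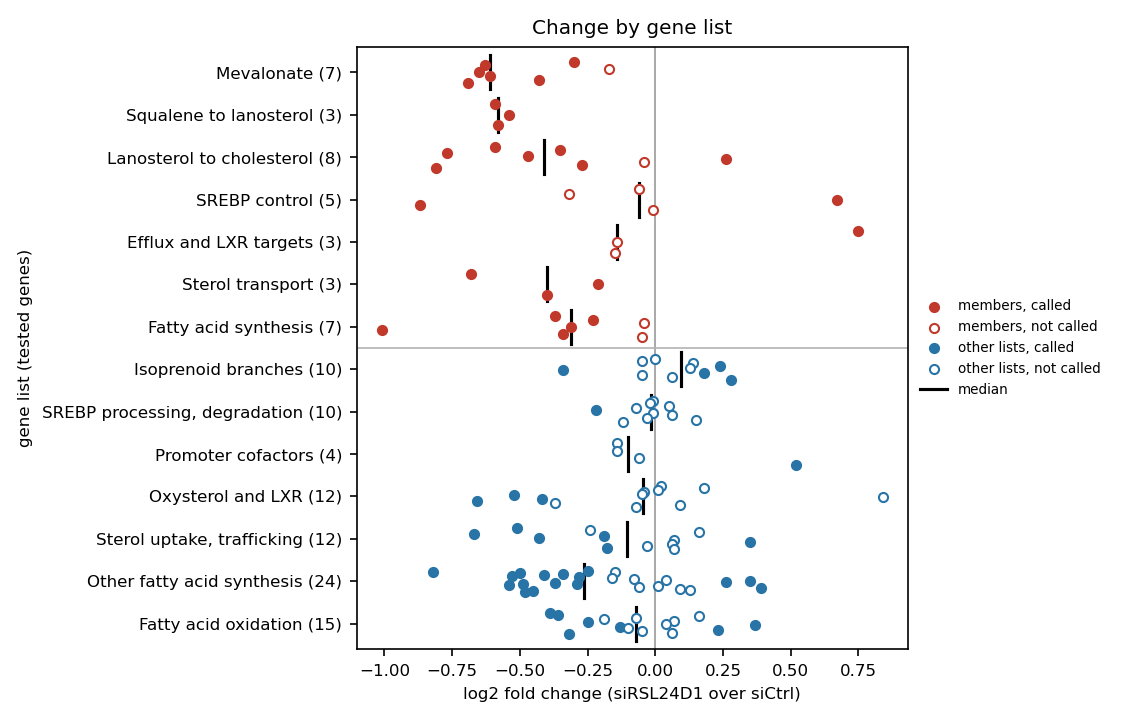
Log2 fold change, siRSL24D1 over siCtrl, of each tested gene (x axis) by list (y axis, number of tested genes in brackets), with the 36 genes in red and other pathway lists in blue. Filled points passed the edgeR test, open points did not, and black bars are list medians. Medians lie at -0.61, -0.58 and -0.41 for the sterol synthesis stages, at -0.31 and -0.26 for the fatty acid synthesis lists, and between -0.14 and 0.10 for the other lists apart from sterol transport at -0.40.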

How the data were processed

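RNA of 6 libraries, 3 siRSL24D1 and 3 siCtrl by their titles, was sequenced after removal of ribosomal RNA. The table deposited by the authors gives unscaled estimated counts for each gene symbol. STAR 2.7.0f, Salmon 0.14.1 and genome build GRCm38 are named in the submitters' processing notes. How the tools were combined, the annotation, any filters and the strand setting are not stated there. All 6 columns were used.

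Estimated counts were rounded to whole numbers. After filterByExpr (minimum count 10, minimum total 15) and TMM scaling, the groups were compared by the two-sided quasi-likelihood F test of edgeR 4.0.16 in R 4.3.3, with no other term and Benjamini-Hochberg adjustment over all 15084 genes tested. Standard errors (SE) of log2 fold changes were derived as the absolute log2 fold change divided by the square root of the F statistic. CPM values refer to the TMM-scaled totals of the genes tested. Log2 ratios of gene pairs used a pseudocount of 0.5 CPM. Exon lengths and overlaps come from GENCODE M21, and promoter windows from RefSeq (GRCm38.p6). The test step was checked on simulated counts. Alternatives were other scalings and filters, DESeq2 1.42.0, limma-voom (limma 3.58.1), a replicate block, a loess correction for gene length, unrounded values, an adjusted p under 0.01, and leaving out each library.

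The members and lists were chosen with earlier results of these data known, and no list was tested as a set. Per-library values are given for the 3 called genes of each role with the largest change, for called genes that moved against the rest of their role, for the paralog pairs, and for regulator and efflux genes that were not called. Other genes are given by range or fold change, with the 2 largest called changes of each other list. Genes given beyond this rule were chosen after their values were seen.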

Additional observations from a re-analysis of the deposited data

How the results depend on the processing

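Of the 36 genes, 29 kept their direction and their call under all 18 alternative settings. The number that fell, 24, and the number that rose, 3, stayed within 1.5 times of these under each of them. For the SREBP regulators, the number that fell was 2 in place of 1 under upper-quartile scaling, DESeq2, the replicate block, and the gene length correction with and without that block, and it ran from 1 to 2 when a library was left out, since Srebf2 passed there. Insig2 was at 0.01 with library totals. When a library was left out, Insig2 ran from -0.04 to 0.02, Fasn from -0.11 to 0.06 and Lpin1 from -0.09 to 0.003, positive for Insig2 without siRSL24D1 2, for Fasn without siCtrl 3 or siRSL24D1 2 (0.01) and for Lpin1 without siCtrl 3, and none was called in any of these. Npc1 and Acaca did not pass at an adjusted p under 0.01. The cause of these changes was not tested. Deviations of same-numbered libraries from their group means had correlations of -0.218, 0.144 and 0.168. From 3 libraries per group these cannot show whether the numbers mark pairs, and the main test did not pair them. With the replicate block, Mvk (-0.17, edgeR adjusted p = 0.0462) and Srebf2 (-0.32, edgeR adjusted p = 0.0425) passed and no call was lost. In that setting 26 of the 36 genes fell and 3 rose, beside 3104 and 3327 of all 15084 tested genes. In the main test, 3021 of all tested genes fell and 3191 rose. Not every library correlated best with its own number. Leaving out a library or changing the pseudocount moved no gene-pair ratio beyond its spread. With 3 libraries per group, a difference of the size of the standard errors given could not be resolved.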
